A study of Homo sapiens with 7 samples.

Results

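The windows late in both cell lines are 462 stretches of 250 kb, out of 8437 autosomal windows measured, that replicated late on every one of 7 arrays. They were chosen from the readout itself. For each probe the log2 ratio of early over late S-phase DNA was taken from the spot means minus local background, with signals under 10 units set to 10. The ratio was averaged over each window that held at least 3 probes on all 7 arrays, and windows were ranked on each array from 0 (latest) to 1 (earliest). A window was kept where its rank was 0.25 or less on all 7 arrays, so its lateness is a description and carries no test. The same rule at the other end (rank 0.75 or more on all 7 arrays) gave 465 early windows, used below for comparison.

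The series compared nascent DNA of early and late S phase by hybridising both to the same two-colour oligonucleotide array. K562, a suspension line from a chronic myeloid leukaemia, was measured on 3 arrays: 1 after a new cell sorting method, 1 after the old method, and 1 on an array titled 44k whose sorting method is not given. U2OS, an adherent osteosarcoma line, was measured on 4 arrays, 2 titled manual and 2 titled automated, with no label saying which step was automated. The labels give no genetic change or drug for either line. In every group cells were pulsed with 50 µM bromodeoxyuridine (BrdU) for 2 h, fixed, stained for DNA content and sorted into an early and a late fraction (80000 cells), and the antibody-captured DNA was amplified over the whole genome before labelling. Early DNA carried Cy3 and late DNA Cy5 on every array, so no dye swap separates a dye effect from timing. No label says that replicates came from separate cultures, so p-values measure only the spread between these samples, which may be technical.

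Replication timing is the order in which parts of the genome are copied during S phase. Early domains are usually gene-rich, transcribed and open, whereas late domains are gene-poor, AT-rich, often attached to the nuclear lamina, and hold many long genes that are active only in specialised tissues such as neurons. A part of the genome is late in nearly every cell type, and the remainder changes with cell type.

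The array measures each domain through short designed probes. The probe nearest the centre of each of the 3 latest windows on separate chromosomes is shown to give the reader the DNA behind the values, each of 60 bases on hg19 as the deposited tables give it, with CG in capitals.

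Probe at chr6:63928733-63928792: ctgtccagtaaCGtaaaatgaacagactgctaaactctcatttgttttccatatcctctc
Probe at chr5:11897033-11897092: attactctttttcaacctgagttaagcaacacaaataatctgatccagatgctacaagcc
Probe at chr7:109612590-109612649: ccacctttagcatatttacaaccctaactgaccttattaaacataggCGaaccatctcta

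The chromosome 6 probe has no gene name. Its processed log2(early/late), defined below, was -4.48 on the new-sorting, -2.76 on the old-sorting and -3.28 on the 44k K562 array, and -2.10, -2.96, -3.19 and -3.10 on manual arrays 1 and 2 and automated arrays 1 and 2. The chromosome 5 probe is annotated to CTNND2, which encodes a neuronal catenin. It read -3.58, -2.50 and -3.13 on the K562 arrays in the same order, and -1.55, -3.24, -3.43 and -2.95 on the U2OS arrays. The chromosome 7 probe has no gene name. It read -3.61, -1.90 and -2.84 in K562 and -3.11, -2.66, -3.29 and -2.31 in U2OS. All 3 probes were below 0 on each of the 7 arrays. Each spread by over 1 log2 unit between the K562 arrays, as did the chromosome 6 and 5 probes between the U2OS arrays. Their GC contents were 38.3%, 36.7% and 38.3%, and 1, 0 and 1 CG dinucleotides lie in them.

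One array decided much of the membership. On the other 6 arrays 906 windows were late, and 444 of them failed only on the old-sorting K562 array. Windows late on 6 arrays were also late on the array left out in 94.3% of 490 cases for new-sorting K562, 91.3% of 506 for 44k K562, and 91.5% to 96.7% of 478 to 505 for the 4 U2OS arrays. For old-sorting K562 the share was 51.0% of 906 (95% Wilson interval 47.7 to 54.2%, which covers counting error over windows alone). By construction 25% of all windows are late on any array.

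The 444 windows that failed there were dim. Total signal is the mean of log2 early and log2 late processed signal, centred on each array's median probe, and its median on the old-sorting array was 0.17 in the 462 windows and -0.72 in the 444. Over the 906 windows, the rank on the old-sorting array fell with the total signal of the other 6 arrays (Pearson's r = -0.61 across windows, which are not replicates and share probes and base composition between arrays). Of the windows late on the other 6 arrays, 26.96% of 408 in the dimmest 20% of windows by total signal were also late on the old-sorting array, against 88.9% of 63 in the brightest 20%. For 38.0% of the probes in the 444 windows the scanner software had put a stand-in value for early signal not above background on that array, against 20.8% in the 462 windows. The part of signal strength in the old-sorting ranks was not tested. In the scatter of old-sorting rank against total signal the windows above the rank limit of 0.25 lie mostly to the left, at low total signal. The main counts below are given with the 462 windows and, beside them, with the 906 windows chosen without that array. The runs, single windows and genes that are described are those of the 462.

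**Figure D1:**
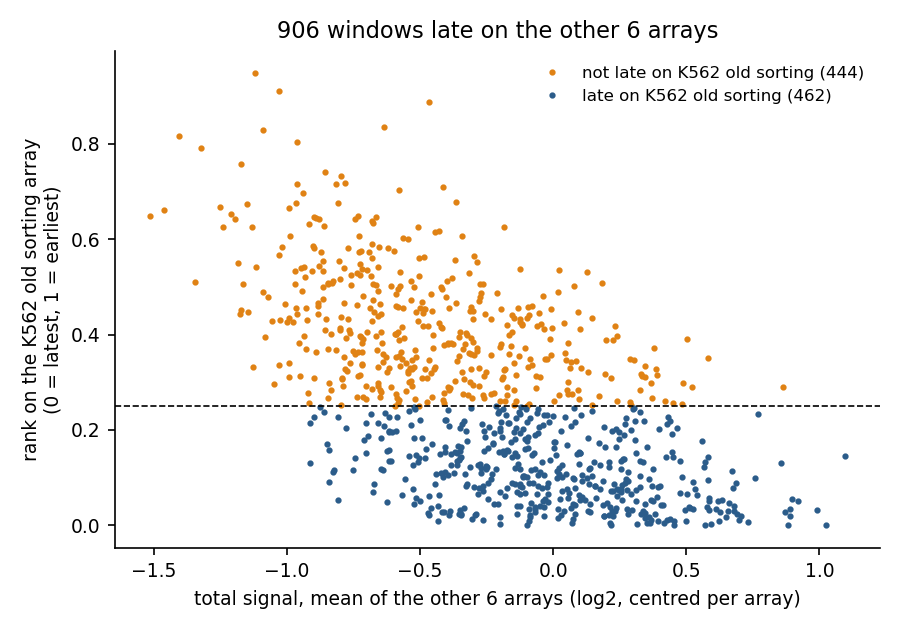
The 906 windows late on the 6 arrays other than old-sorting K562, by total signal (mean of those 6 arrays, log2, centred per array) on the x axis and rank on the old-sorting K562 array (0 latest, 1 earliest) on the y axis. The 462 points under the dashed limit of 0.25 are the windows late on all 7 arrays, and the 444 above it reach high ranks mainly at low total signal.

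From here, timing values are the processed log2(early/late): the deposited log ratio of the scanner software, turned so that positive means early, and centred on each array's median probe. Window values are means over probes. The 462 windows had a median of -3.06 on the new-sorting, -1.86 on the old-sorting and -1.91 on the 44k K562 array. In U2OS the manual arrays gave medians of -1.85 and -1.94, the automated arrays -2.30 and -2.12. The mean of the array medians was -2.15 ± 0.43 (SD, n = 7), -2.28 ± 0.68 in K562 (n = 3) and -2.05 ± 0.20 in U2OS (n = 4). The early windows stood at 1.46 ± 0.15 and all tested windows at 0.18 ± 0.07 (both SD, n = 7). The new-sorting array had the lowest median and also the widest spread over all tested windows, with an SD of 1.82 against 1.19 to 1.44 on the other arrays. All 462 windows were below 0 on each array, the highest single value being -0.66 on the 44k array. The processed ratio comes from the same spots as the rule, so this is no independent check. The 444 windows that failed on the old-sorting array had a median of -1.01 there and -1.68 to -3.08 on the other 6 arrays.

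**Figure D2:**
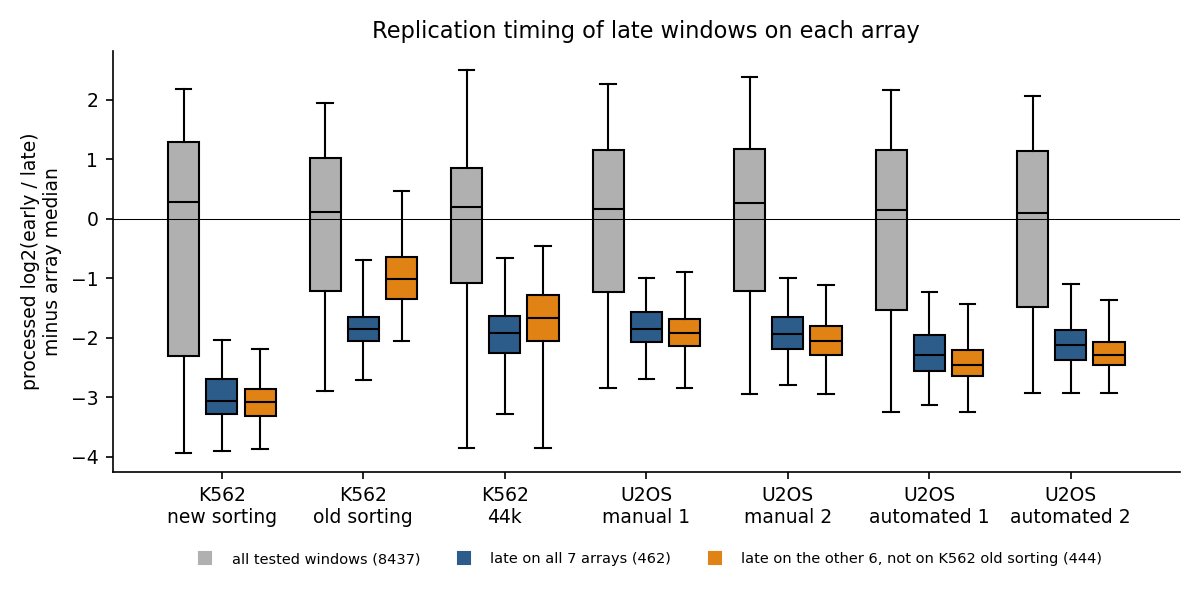
Processed log2(early/late) of windows on each of the 7 arrays (y axis, log2 units relative to the array's median probe), as boxes with quartiles and median and whiskers to the lowest and highest window. Late windows (blue) have medians between -3.06 and -1.85, and the 444 windows late on the other 6 arrays (orange) rise to -1.01 on old-sorting K562.

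The lines share a core of late windows. No excess over all windows was seen when dim probes were left out (1 window of 204 late in both). Of 1100 windows late on all 3 K562 arrays, 462 (42.0%, 95% Wilson interval 39.1 to 44.9%) were late on all 4 U2OS arrays, against 17.1% of all tested windows. Of 1440 windows late on all 4 U2OS arrays, 32.1% (29.7 to 34.5%) were late on all 3 K562 arrays, against 13% of all windows. Without the old-sorting array these shares were 48.1% of 1885 and 62.9% of 1440, against 17.1% and 22.3% of all windows, and 10.7% of all windows were late on the 6 arrays in place of 5.48% on 7. A window chosen as late in K562 had a median mean rank of 0.210 over the U2OS arrays, and one chosen in U2OS had 0.212 over the K562 arrays. In each direction some windows crossed the genome's middle: 118 of the 1100 had a mean U2OS rank above 0.5, and 78 of the 1440 a mean K562 rank above 0.5.

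The study used a late and an early control locus for quantitative PCR, and neither lies in a late window. DPPA2, a gene of pluripotent cells and the late control, has 2 probes in the window chr3:109000001-109250000 (hg19). Its ranks were 0.148, 0.345 and 0.129 on the new-sorting, old-sorting and 44k K562 arrays, and 0.028, 0.141, 0.049 and 0.023 on manual 1 and 2 and automated 1 and 2. The late control was therefore late on 6 arrays and missed the limit on the old-sorting array alone. Its processed value averaged -1.90 ± 0.84 over the K562 arrays (SD, n = 3) and -1.97 ± 0.34 over the U2OS arrays (SD, n = 4). BMP1, a metalloprotease gene and the early control, lies in the window chr8:22000001-22250000, which read 0.77 ± 0.78 in K562 and 1.01 ± 0.14 in U2OS. On the 44k array that window read -0.13, and on the other 6 arrays 0.82 to 1.28.

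Late windows came in small groups. The 462 windows formed 318 runs of adjacent windows, of which 221 were single windows, 63 were pairs, 24 were runs of 3, 8 of 4, and 1 each of 5 and 6. Chosen without the old-sorting array, 906 windows formed 526 runs, the longest of 2000 kb. The longest of the 318 runs spans 1500 kb at chr7:108500001-110000000, a stretch read by 112 probes with few gene names (among them C7orf66). Its mean was -3.37, -1.93 and -2.48 on the new-sorting, old-sorting and 44k K562 arrays, and -2.18, -2.22, -2.75 and -2.40 on manual 1 and 2 and automated 1 and 2. The next run, chr2:179750001-181000000, carries CCDC141, SESTD1, the zinc finger gene ZNF385B and the splicing factor gene CWC22. It averaged -2.78, -1.86 and -1.80 in K562 and -1.75, -1.76, -2.30 and -2.12 in U2OS, in the same orders. The run at chr5:128750001-129750000 holds ADAMTS19, a secreted metalloprotease gene, and CHSY3, a chondroitin synthase gene, with means between -3.33 (new-sorting K562) and -1.90 (old-sorting K562). A run at chr6:96250001-97250000 holds FUT9, a fucosyltransferase gene, KIAA0776, FHL5 and GPR63, with means between -3.19 and -1.85 on those same arrays. A run at chr18:4250001-5250000 has 48 probes and ranged from -3.15 to -1.65 on them.

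Median timing rose with distance from the late windows, which does not show how abrupt the change was at any single one of these windows. Their 416 tested neighbours at 250 kb had medians of -2.39, -1.47 and -1.28 on the new-sorting, old-sorting and 44k K562 arrays and -1.43, -1.53, -1.86 and -1.82 on the U2OS arrays. None of these 416 was early on all 7 arrays, and 63 of them (15.1%) failed the rule on the old-sorting array alone, as did 5.57% of all 7975 windows that were not members. At 500 kb the array medians lay between -1.27 and -0.45, at 750 kb between -0.62 and 0.06, and at 2000 kb between 0.18 and 0.47. On every array most of the rise took place within 750 kb. Counted from the 906 windows, the array medians lay between -2.51 and -1.17 at 250 kb, between -1.34 and -0.57 at 500 kb and between 0.57 and 1.03 at 2000 kb. Distance is counted from windows chosen on these same values, so the profile is a description.

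**Figure D3:**
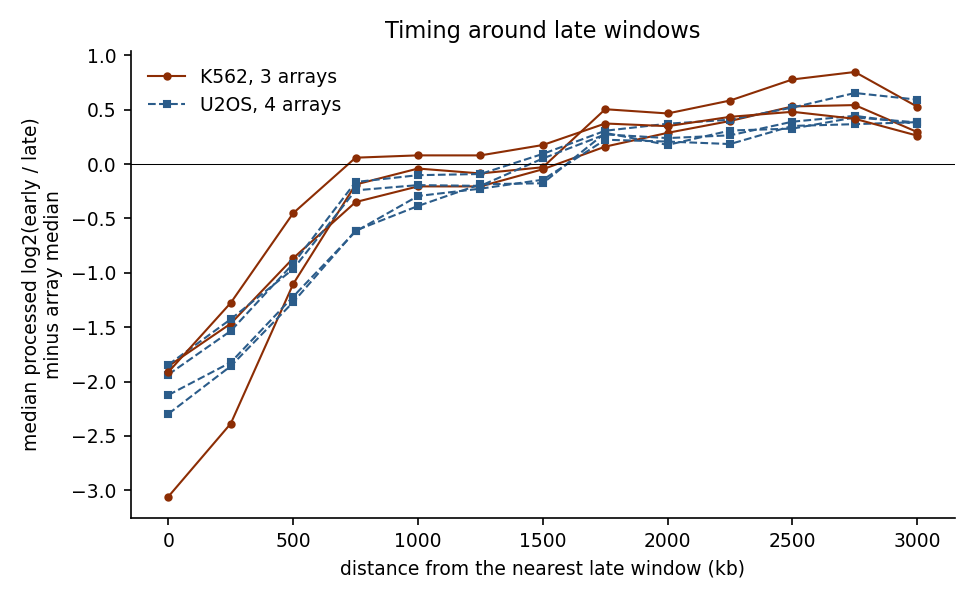
Median processed log2(early/late) of tested windows (y axis) by distance to the nearest late window (x axis, kb), 1 line per array, K562 solid and U2OS dashed. At 0 kb the medians are -3.06 to -1.85, at 750 kb -0.62 to 0.06.

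Of the windows at the lowest end, ordered by the mean of the line means, the latest was chr6:63750001-64000000, which holds probes of LGSN, a lens protein gene. It read -2.88 ± 0.72 in K562 (SD, n = 3) and -2.59 ± 0.34 in U2OS (SD, n = 4). The next was chr5:11750001-12000000 in CTNND2, at -2.66 ± 0.88 and -2.74 ± 0.23. Its rank on the old-sorting array, 0.240, was near the limit, while its 6 other ranks were 0.025 or less. The remaining 3 of the lowest 5 were chr7:109500001-109750000 and chr7:109000001-109250000, both in the longest run, and chr6:96750001-97000000 with KIAA0776. Their K562 means were -2.79, -2.75 and -2.86, and their U2OS means -2.57, -2.61 and -2.50. At the limit itself, the member windows with the highest largest rank were chr2:41250001-41500000, chr4:20750001-21000000 and chr20:59250001-59500000 (0.2496, 0.2496 and 0.2491). The non-members with the lowest largest rank were chr8:70750001-71000000, chr2:14000001-14250000 and chr7:70500001-70750000 (0.2505, 0.2506 and 0.2506). In both the chromosome 2 windows the old-sorting array held that rank, and the other 6 ranks were 0.082 or less.

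Late windows held few genes, a property of the array's annotation that the rule did not use. A late window carried 1.62 gene names on average, against 3.24 over all tested windows and 4.35 in early windows. Of the 462 windows, 52.2% carried exactly 1 name and 9.31% none, against 25.6% and 3.57% of all tested windows and 7.31% and 0% of early windows. At the crowded end, 3.68% of late windows had 5 or more names, against 24.0% of all and 41.9% of early windows. The 906 windows chosen without the old-sorting array gave 57.2% with 1 name, 9.27% with none and 2.21% with 5 or more. The share of probes that carry any gene name differed less: 74.9% (95% Wilson interval 73.9 to 75.9%) in late, 77.6% in all and 80.1% in early windows. That interval counts probes as independent, although they share windows and genes, so it is too narrow. The order of late and all windows depended on the windows kept. With at least 5 probes per window the share was 83.7% in late windows against 82.1% in all, whereas on the probes of the 44k array it was 76.2% against 84.5% and with 500-kb windows 64.4% against 73.2%. Probe base composition hardly differed, at 36.3% ± 2.0 GC (SD over probes) in late and 36.5% ± 2.6 in all windows, as designed probes lie in a narrow range.

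**Figure D4:**
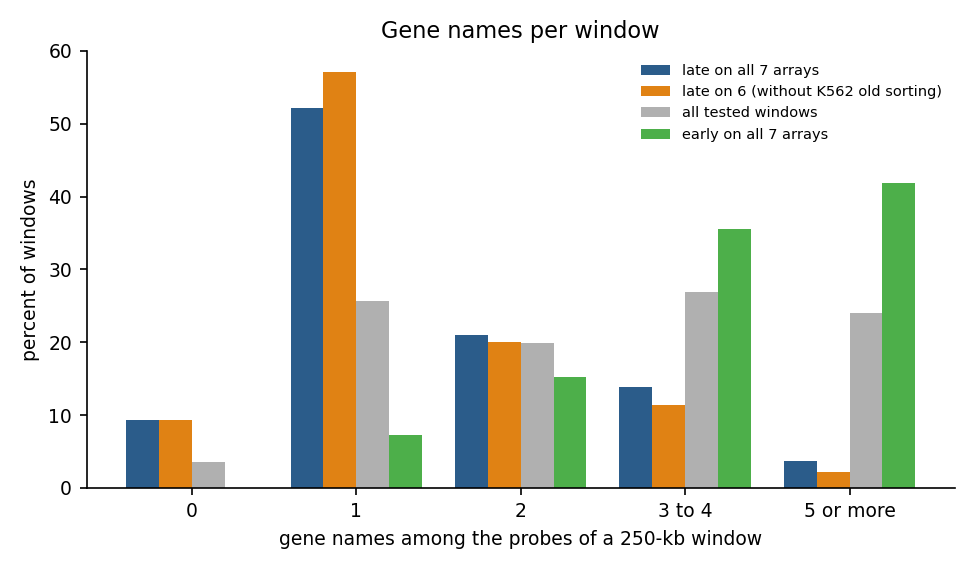
Percent of windows (y axis) by the number of gene names among a window's probes (x axis), for late windows, windows late on the 6 arrays without old-sorting K562, all tested windows and early windows. A single name is the commonest case in late windows (52.2%), and 5 or more in early windows (41.9%).

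Those genes were long. A gene was called late where 50% or more of its probes lay in late windows: 256 of 15979 genes that matched a current symbol (1.60%), and 433 (2.71%) with the 906 windows. From first to last probe late genes spanned a median of 71.5 kb (105 kb with the 906 windows), against 17.6 kb for all genes and 21.4 kb for early genes. Of 237 genes over 500 kb, 19 (8.02%) were late and none was early, whereas 1319 genes (8.25%) of all 15979 were early. Of the same 237, 61 (25.7%) were late with the 906 windows, against 2.71% of all genes. Counting protein-coding genes alone, 18 of 235 over 500 kb were late, and 60 with the 906 windows. Of the 13479 genes under 100 kb, 143 (1.06%) were late, and 210 (1.56%) with the 906 windows.

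The 15 genes with the most probes in late windows were then examined, an order that favours long genes by construction. DLG2, a scaffold gene of the postsynaptic density on chromosome 11, came first with 88 of its 161 probes. Over its 2162 kb it averaged -2.76, -1.55 and -1.72 on the new-sorting, old-sorting and 44k K562 arrays, and -1.67, -1.55, -1.93 and -1.86 on manual 1 and 2 and automated 1 and 2. MAGI2, another scaffold gene (chromosome 7), had 63 of 119 probes in late windows, and PTPRT, a receptor tyrosine phosphatase gene (chromosome 20), 62 of 94. GRM8, which encodes a metabotropic glutamate receptor, had 53 of 65 and averaged -2.61 ± 0.57 in K562 (SD, n = 3) and -2.17 ± 0.25 in U2OS (SD, n = 4). SEMA5A, an axon guidance gene, lay in late windows with all of its 41 probes. It averaged -2.48 ± 0.71 in K562 and -2.21 ± 0.25 in U2OS. CADPS2, a gene of vesicle release, had 43 of 48 probes in late windows and the lowest K562 mean of the 15, -2.71 ± 0.81, beside -2.31 ± 0.44 in U2OS. DGKB, a diacylglycerol kinase gene, had 48 of 54. AGBL4 (52 of 111), PDE4D, a cyclic AMP phosphodiesterase gene (50 of 113), CNTN4, a contactin gene (43 of 80), NRXN3, a neurexin gene (40 of 122), and ANKS1B (40 of 97) were late over part of their length. CTNND2 (51 of 74) and NCAM2, a neural cell adhesion gene (42 of 54), were late over most of theirs. In all 15 genes every array gave a mean below 0, which follows largely from choosing them by their probes in late windows.

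Gene lists from textbook knowledge, chosen with earlier results of these data known, were counted against the 1.60% of all genes that were late. Among 39 giant neuronal adhesion and fragile-site genes, 18 had at least 1 probe in a late window, 6 were late (15.4%) and none was early. The 6 were DLG2, MAGI2, PTPRT, CNTN4, CNTNAP4 and CNTN1. With the 906 windows 20 of the 39 were late (51.3%, against 2.71% of all genes). DPP10 had 26 of 115 probes in the 462 windows and 115 of 115 in the 906. NLGN1, a neuroligin gene, had 9 and 69 of 70, and CTNNA3, an alpha-catenin gene, 38 and 119 of 136. PARK2 and WWOX, genes of common fragile sites, had 35 of 113 and 17 of 83 probes in late windows, and the same numbers in the 906. The median of the 39 genes' processed means was -1.89 in K562 and -2.05 in U2OS, against 0.74 and 0.95 over all genes.

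Among 45 voltage-gated channel genes, 4 were late (8.89%): the potassium channel genes KCNH5, KCNH8 and KCNB2 and the sodium channel gene SCN1A. Of the same 45, 3 were early (6.67%, against 8.25% of all genes). The list as a whole was not late, with a median of 0.45 in K562 and 0.54 in U2OS. KCNH5 averaged -2.42 ± 0.80 in K562 (SD, n = 3) and -2.37 ± 0.13 in U2OS (SD, n = 4). With the 906 windows 8 were late. Among 33 GABA-A and glutamate receptor subunit genes GRIA4 alone was late (3.03%), and 5 were with the 906 windows. Among 66 keratin and keratin-associated protein genes, 9 were late (13.6%) and 15 were early (22.7%), so this list was split. Its 4 late genes with the most probes, KRTAP7-1, KRTAP13-1, KRTAP13-2 and KRTAP13-4, lie on chromosome 21 and have 1 or 2 probes each. The lowest of the 4, KRTAP13-4, read -3.16 ± 0.48 in K562 and -2.37 ± 0.21 in U2OS. The highest, KRTAP13-2, read -1.37 ± 0.90 in K562 and -1.11 ± 0.20 in U2OS. Among 50 olfactory receptor genes, 3 were late (6%), all in 1 stretch of chromosome 11 between positions 56000596 and 56506919. OR8U8, with 28 of 29 probes in late windows, averaged -2.36 ± 0.69 in K562 and -2.32 ± 0.23 in U2OS. OR8K3 and OR5T2 have 1 probe each. OR5T2 read -1.67 and 0.74 on new-sorting and old-sorting K562. On manual 1 and 2 and automated 1 and 2 it read -1.68, -1.40, -0.45 and -0.45. Zinc finger genes were near the background, 10 of 461 (2.17%), with ZNF385B and ZNF804A late over all of their tested probes. None of 23 classical cadherin genes was late, 4 were with the 906 windows, and none of 25 protocadherin genes was late, with 1 in the 906. In the keratin, olfactory receptor and zinc finger lists the 906 windows gave the same counts of late genes as the 462.

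Housekeeping lists were not free of late genes. Among 130 ribosomal protein genes MRPS30, of the mitochondrial ribosome, was late (0.769%). Its U2OS values were split by handling, with -2.46 and -2.37 under manual and -0.31 and -0.06 under automated handling. Among 54 RNA polymerase II and translation factor genes EIF3E was late (1.85%), at -1.77 ± 0.77 in K562 and -2.27 ± 0.38 in U2OS. Among 36 replication factor genes ORC4, a subunit of the origin recognition complex, was late (2.78%), at -2.34 ± 0.80 and -2.15 ± 0.50. These 3 genes have 2, 5 and 6 probes, all in late windows. No gene of 38 proteasome subunits or 33 splicing factors was late. With the 906 windows 2 ribosomal protein genes and 1 splicing factor gene were late, and the counts for the proteasome, translation and replication factor lists were the same. Counts of 0 or 1 gene in lists of this size do not separate a list from the 1.60% of all genes. Of 52 cytochrome P450 genes CYP7B1 was late, of 32 serpins SERPINI2. The 15 taste and vomeronasal receptor genes, 8 UDP-glucuronosyltransferase genes, 8 defensin genes and 2 interferon alpha genes held no late gene. The UDP-glucuronosyltransferase genes had a median of -1.69 all the same.

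Promoters of late genes were poorer in CpG. Promoter sequences (250 bases before to 50 after the gene start, RefSeq on GRCh38.p14, another build than the arrays) matched 193 of 241 late genes and 12627 of 15403 genes on the chromosomes that the table covers. The motif counted was CG, which reads the same on both strands. The median was 13 per promoter in late genes (quartiles 3 and 25) and 24 in all (12 and 33). Of late genes, 38.3% had 5 or fewer, against 15.8% of all matched genes and 14.6% of early genes. With the 906 windows it was 35.4%. Promoters with 20 or more CG made up 37.8% of late and 61.4% of all genes. The letters TATAAA, on either strand, were in 15.5% of late, 8.12% of all matched genes' promoters and 11.53% of all promoters in the table. Late genes were thus a mixture, as the promoters of genes in the longest runs show. These are printed with the late control first, 5′ to 3′ along the gene, CG in capitals.

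DPPA2 (GRCh38.p14 chr3:109316468-109316767, minus strand): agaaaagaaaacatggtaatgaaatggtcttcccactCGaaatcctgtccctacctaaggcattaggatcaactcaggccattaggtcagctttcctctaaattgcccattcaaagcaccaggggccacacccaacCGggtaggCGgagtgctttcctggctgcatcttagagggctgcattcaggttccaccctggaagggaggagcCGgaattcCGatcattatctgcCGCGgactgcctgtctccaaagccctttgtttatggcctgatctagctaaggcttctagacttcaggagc
CCDC141 (GRCh38.p14 chr2:179050088-179050387, minus strand): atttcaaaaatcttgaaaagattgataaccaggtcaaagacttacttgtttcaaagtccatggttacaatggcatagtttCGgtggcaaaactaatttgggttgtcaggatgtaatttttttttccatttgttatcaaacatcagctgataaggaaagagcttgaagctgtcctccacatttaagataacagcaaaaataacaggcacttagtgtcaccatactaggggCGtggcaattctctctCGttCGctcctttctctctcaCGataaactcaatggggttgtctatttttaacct
ZNF385B (GRCh38.p14 chr2:179861563-179861862, minus strand): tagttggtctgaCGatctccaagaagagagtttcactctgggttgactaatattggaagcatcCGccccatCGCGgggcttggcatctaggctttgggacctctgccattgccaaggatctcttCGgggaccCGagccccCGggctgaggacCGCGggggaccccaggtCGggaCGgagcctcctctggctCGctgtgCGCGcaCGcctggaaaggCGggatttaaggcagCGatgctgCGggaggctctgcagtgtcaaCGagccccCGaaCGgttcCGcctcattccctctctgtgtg
CWC22 (GRCh38.p14 chr2:180007248-180007547, minus strand): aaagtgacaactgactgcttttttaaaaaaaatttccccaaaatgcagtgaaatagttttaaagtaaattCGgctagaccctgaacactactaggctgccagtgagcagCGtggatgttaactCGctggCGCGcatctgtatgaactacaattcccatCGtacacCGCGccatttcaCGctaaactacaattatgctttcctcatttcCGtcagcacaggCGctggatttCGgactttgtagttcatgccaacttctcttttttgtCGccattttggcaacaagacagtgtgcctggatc
ADAMTS19 (GRCh38.p14 chr5:129460048-129460347, plus strand): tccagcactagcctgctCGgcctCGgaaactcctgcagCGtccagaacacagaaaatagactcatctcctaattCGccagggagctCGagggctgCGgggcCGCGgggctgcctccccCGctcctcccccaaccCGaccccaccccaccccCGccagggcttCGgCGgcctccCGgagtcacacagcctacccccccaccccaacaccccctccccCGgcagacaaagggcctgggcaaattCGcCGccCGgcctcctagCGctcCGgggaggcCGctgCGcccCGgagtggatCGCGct

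The CCDC141 promoter has 5 CG at 37.7% GC and that of DPPA2 has 7 at 51.3%. CWC22 has 13 at 44.0% GC, ZNF385B 22 at 62.3% and ADAMTS19 25 at 70.7%. None of the 5 holds TATAAA on either strand, which says only that these letters are not in these 300 bases. CCDC141, ZNF385B and CWC22 lie in a single late run of 1250 kb, so promoters poor and rich in CG stood side by side in late DNA.

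The chromosomes contributed unequally, and their order depended on the old-sorting array. On 7 arrays chromosome 7 had the highest share, with 64 of 534 tested windows late (12.0%, against 5.48% of all), followed by chromosome 21 with 9.02% of 122 and chromosome 6 with 8.21% of 524. Chromosome 22 had no late window among 135, chromosome 19 had 1 of 210, chromosome 9 had 3 of 354, and chromosomes 13 and 17 had 4 each of 288 and 277. A low share did not mean an early chromosome. The window median, averaged over arrays, was -0.75 on chromosome 13, with 1 early window (0.347%), and 1.02 on chromosome 17. Chromosome 13 also had the lowest median total signal of the autosomes, -0.28 in K562 and -0.52 in U2OS. With the 906 windows the first place went to chromosome 5 (15.98%), then chromosomes 2 (15.9%), 8 (15.7%) and 3 (15.6%). Chromosome 7 followed at 14.4% behind chromosomes 18 (15.4%) and 21 (14.8%), against 10.7% of all. The chromosomes that led on 7 arrays were brighter in K562: median total signal in K562 minus U2OS was 0.42 on chromosome 6, 0.38 on chromosome 7 and 0.33 on chromosome 21, while it was -0.08 on chromosome 5, -0.11 on chromosome 2, -0.17 on chromosome 3 and -0.02 on chromosome 8. Some chromosomes with fewer late windows were brighter in K562 than in U2OS as well: the difference was 0.31 on chromosome 1 (5.38% late), 0.30 on chromosome 19 and 0.24 on chromosome 13. Its part in the order was not tested. At the low end both choices gave the same 5 chromosomes as named above: 1.48% or less on chromosomes 17, 19 and 22, 2.54% on chromosome 9 and 3.47% on chromosome 13 with the 906 windows.

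**Figure D5:**
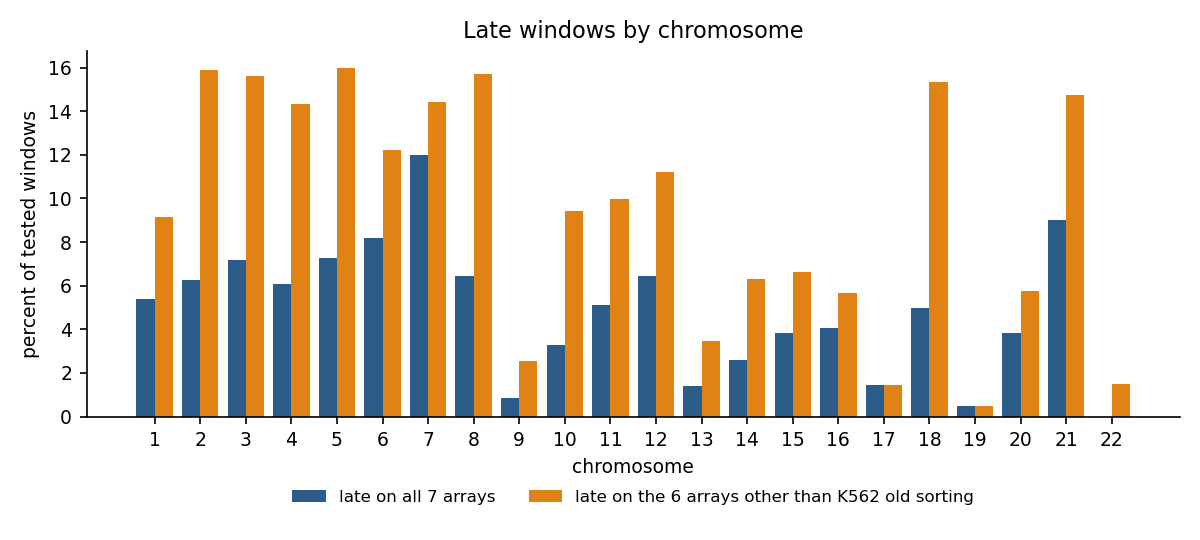
Percent of tested windows of each autosome (y axis) that were late on all 7 arrays (blue) or on the 6 arrays other than old-sorting K562 (orange). Chromosome 7 leads in blue at 12.0%, and chromosomes 5, 2, 8 and 3 in orange at 15.6 to 15.98%.

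Within the late windows the lines were then compared, with limma's moderated test over all 8437 windows and Benjamini-Hochberg adjusted p under 0.05. Over all windows 31.5% differed between K562 and U2OS. Of the 462 late windows 15 (3.25%) did, 1 with higher and 14 with lower log2(early/late) in K562. The rule bounds the ranks in both lines, so few calls follow from it and nothing is read from the low share. The window called with the largest difference was chr7:34000001-34250000, with BMPER, a gene for a secreted regulator of bone morphogenetic proteins. It read -3.40, -2.08 and -2.09 on the new-sorting, old-sorting and 44k K562 arrays, and -1.08, -1.35, -1.27 and -1.10 on manual 1 and 2 and automated 1 and 2. All K562 values lay below all U2OS values, with a difference of -1.32 (SE 0.33, limma adjusted p = 0.011). The second was chr6:81000001-81250000, with BCKDHB, a subunit gene of branched-chain keto acid dehydrogenase, at -2.90, -1.97 and -2.99 in K562 and -1.08, -1.02, -1.81 and -1.72 in U2OS. The groups did not overlap, and the difference was -1.21 (SE 0.32, limma adjusted p = 0.017, and 0.0039 to 0.072 with an array left out). The 1 window called in the other direction had overlapping groups.

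This count and its direction rested on single arrays. Without the new-sorting array 38 late windows were called, 32 of them higher in K562, beside 40.3% of all windows. Without the old-sorting array 52 were called, all lower, beside 30.3% of all windows. Leaving out a U2OS array gave 4 to 7 (23.9 to 28.8% of all windows). With every array scaled to the same median absolute deviation 84 were called, 83 of them lower in K562, beside 37.1% of all. With the 906 windows 16 were called (1.77%, against 31.5% of all windows). The median difference of the late windows, K562 minus U2OS, was -0.21, beside -0.12 for all windows. It was 0.16 without the new-sorting array, so no direction of late windows as a set is given. No slide held both lines, and slide and line cannot be told apart.

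Between handling methods, 100 of the 462 late windows (21.6%) differed in U2OS, 99 of them lower on the automated arrays, where 22.3% of all windows differed, 16.4% lower and 5.83% higher. The late windows were chosen on these same arrays, and the rule bounds their ranks under both handling methods. Nothing is therefore read from the late share beside that of all windows. The p-values below describe windows already selected on the values tested. The median difference, automated minus manual, was -0.31 in late windows and -0.33 in the 906, beside -0.16 over all windows. With loess within arrays it was -0.09 in late windows and 0.03 over all. The window with the largest difference was chr5:106750001-107000000 in EFNA5, an ephrin ligand gene, with -1.04 and -1.18 under manual and -2.60 and -2.49 under automated handling. The groups did not overlap. The difference was -1.43 (SE 0.16, limma adjusted p = 0.0016). Next came chr8:109750001-110000000 with TMEM74, at -1.70 and -1.43 manual and -3.04 and -2.85 automated, a difference of -1.38 (SE 0.17, limma adjusted p = 0.0020). The window called in the opposite direction, chr2:105000001-105250000, read -1.91 and -2.09 manual and -1.36 and -1.33 automated. Its difference was 0.65 (SE 0.16, limma adjusted p = 0.020, and up to 0.19 with an array left out).

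The number of such calls moved with the scale. It was 34 with arrays scaled to the same median absolute deviation (15.8% of all windows called) and 43 with centring on the mean (18.6% of all). It was 311 with the floored spot means of the rule (36.4% of all) and 462 of 462 with another background correction, normexp (73.7% of all). In these settings 0 to 5 of the late windows called were higher on the automated arrays. The share over all windows thus moved with the setting as well. The number called moved with the array left out too, over all windows as in late windows. Such a fit leaves 1 array in a group, so only median differences are given. In late windows they were -0.22 and -0.39 without automated array 1 or 2, and -0.27 and -0.36 without manual array 1 or 2. Over all windows they were -0.15, -0.17, -0.17 and -0.14 in the same order. The 2 automated arrays were also the brightest over background, with 92.3% and 89.7% of probes in tested windows well above it against 53.2% and 34.6% on the manual arrays, whose part in the difference was not tested. The manual arrays shared a slide and each automated array had its own, so slide and handling cannot be told apart.

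Total signal differed between the lines in 176 of the 462 late windows (38.1%), 145 higher and 31 lower in K562, against 31.3% of all windows, 16.7% higher and 14.5% lower. This tilt was not seen when the old-sorting array took no part in the choice: of the 906 windows 318 were called, 171 higher and 147 lower in K562, with a median difference of -0.0014 beside 0.23 in the 462. As shown above, the windows that failed on that array were dim, so total signal is no independent measure of these members. The 462 were not bright there, with a median total signal of 0.17 against 0.16 over all tested windows. The 2 windows with the largest excess in K562 both lie on chromosome 7. At chr7:122750001-123000000, with SLC13A1, a sulfate transporter gene, total signal was 1.28, 1.84 and 2.15 on the new-sorting, old-sorting and 44k arrays and -0.19, 0.07, -0.51 and -0.23 on the U2OS arrays. The groups did not overlap, with a difference of 1.97 (SE 0.22, limma adjusted p = 7.0e-05). At chr7:124500001-124750000, with POT1, a telomere-binding protein gene, the difference was 1.92 (SE 0.21, limma adjusted p = 6.4e-05). Lower in K562 were chr4:53000001-53250000, by -1.36 (SE 0.37, limma adjusted p = 0.014, and up to 0.054 with an array left out), and chr7:3750001-4000000 in SDK1, a cell adhesion gene, by -1.35 (SE 0.24, limma adjusted p = 0.0015). SDK1 read -0.58, -0.12 and -0.63 in K562 and 0.59, 0.46, 1.18 and 1.40 in U2OS. POT1 and SDK1 lie on the same chromosome, and the lines differed in opposite directions there.

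The rule leaves out late DNA where the smaller array has few probes. Of 10585 windows measured by the 6 larger arrays, 2148 had fewer than 3 probes on the 44k array. In those 25.8% of probes had a gene name, against 77.6% in tested windows. Ranked on the 6 larger arrays alone, 436 windows were late on all of them, and 176 of these were among the 2148 (8.19%, against 3.08% of the tested windows). The tested windows, and the gene counts above, therefore under-represent late DNA without genes.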

How the data were processed

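Replication timing was read on 7 two-colour Agilent arrays. Per the file headers, the authors deposited spot intensity per channel (mean signal, median local background and processed signal) and a log10 ratio of late over early, as produced on build hg19 under protocol CGH_1105_Oct12 of Agilent Feature Extraction 11.5.1.1. The submitters' processing notes list version 9.1 of that software. Per the file headers, processed signals were background-subtracted and dye-normalized, a stand-in value replaced signal not above background, and the log ratio was set to 0 for some spots (12.6% of probes in tested windows on the 44k array), which pulls window means towards 0. The 44k-titled array has 62976 features and the other arrays 180880.

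Windows of 250 kb were filled by probe midpoint, repeated spots were averaged and control spots left out. Members were chosen from floored spot means (floor 10) as the report describes. Values described and tested are minus the log10 ratio times log2(10), centred on each array's median probe on chromosomes 1 to 22 and X, without loess, since most probes of a timing array carry signal. All tests are limma 3.58.1 (R 4.3.3; lmFit, eBayes) over all 8437 windows, with Benjamini-Hochberg adjusted p under 0.05 and no covariate. Intervals of shares are Wilson 95% intervals, which count windows or probes as independent and cover counting error alone. The number of arrays limits the precision. Simulated windows with 200 shifted by 2 log2 units were recovered in 87.5% (K562 against U2OS), 88.5% (automated against manual) and 98.0% (total signal), and by 1 unit in 14.0%, 0% and 70.0%, each over 8437 windows. At 2 units 6.42%, 3.80% and 3.92% of the calls were false. In the data 31.5%, 22.3% and 31.3% of windows were called, far more than the 200 shifted. The adjusted p is therefore stricter in the simulation, and its recovered shares do not carry over to these data.

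The labels do not say whether equal replicate numbers pair the U2OS arrays. The differences between numbers 1 and 2 correlated at -0.05 between manual and automated arrays over all windows. That single correlation cannot decide it, since spread between arrays may hide a shared culture. Gene names are the array's, of which 15979 of 22804 matched a symbol of a supplied RefSeq table. The members and gene lists were chosen with earlier results of these data known. Named windows and genes followed a rule: control loci, the 5 longest runs (ties by lower mean), the 5 latest windows, windows nearest the limit, the largest non-overlapping differences (2 per direction and comparison), up to 4 genes per list and the 15 genes with most probes in members. Some genes that this rule names are not reported here. Alternatives were other signals, filters, window sizes, rank limits, scalings and leaving out arrays. The choice without the old-sorting array in gene, chromosome, distance and limma counts, and the count of protein-coding genes alone, were added after seeing the data.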

Additional observations from a re-analysis of the deposited data

Results flagged for a closer look

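Of 41 values checked over the 4 U2OS arrays, 1 had an array far from the other 3, about the number that chance gives at 1 in 20. In the early comparison windows the median total signal was 0.230 on automated array 1 and 0.114 to 0.130 on the others, and that gap made up 0.860 of the range, above Dixon's 95% critical value for 4 values. No value of the late windows was singled out this way.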

How the results depend on the processing

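The count of 462 late windows became 1 of 204 without dim probes, 193 with 500-kb windows, 235 and 799 at rank limits 0.20 and 0.30, and 478 to 906 with an array left out. The deposited log ratio gave 615 windows, of which 367 were shared (79.4% of the 462, 59.7% of the 615), and normexp 499, with 449 shared (97.2% and 90.0%). Under the log ratio, 5 or more probes, 500-kb windows and the limits 0.20 and 0.30, the share of K562-late windows late in U2OS was 46.9%, 52.6%, 34.7%, 32.3% and 51.4%, and the converse share 38.7%, 47.1%, 23.7%, 23.7% and 41.5%. In those settings, in order, windows late on all U2OS arrays numbered 1590 of 8437, 1135 of 5748, 816 of 5216, 992 of 8437 and 1924 of 8437. Windows late on all K562 arrays numbered 1311, 1018, 556, 727 and 1553. Both shares were 5.26% without dim probes, where 19 of 204 windows were late in each line, so no excess was seen there. With an array left out they were 40.5 to 48.1% and 31.2 to 62.9%. There 1440 to 1601 of 8437 windows were late in U2OS and 1100 to 1885 in K562. The named-probe share was 83.7% with 5 or more probes, 64.4% with 500-kb windows, 76.2% on the 44k array, 77.6% at limit 0.20 and 76.4% without the old-sorting array. All windows gave 82.1%, 73.2% and 84.5% in the first 3 of these. The mean of the array medians was -1.34 with normexp, -1.45 with the rule's floored means, and -2.14 to -2.12 with an array left out of the choice.

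Calls between K562 and U2OS numbered 0 with floored means and 0 of 54 windows left without dim probes (limma; at unadjusted p under 0.05 15 and 0), 9 with loess, 84 with equal spread, 25 with mean centring, 5 at a difference of at least 1, 4 against manual and 1 against automated U2OS alone, and 4 to 52 with an array left out. Calls between handling methods numbered 462 with normexp, 311 with floored means, 49 with loess (13 of them higher), 34 with equal spread, 43 with mean centring, 346 of 415 without dim probes, 9 at a difference of at least 1, 187 of 906 without the old-sorting array, and 4 to 169 with an array left out. The replicate block gave 126, and 27 with equal spread. Over all tested windows the share called between handling methods was 73.7% with normexp, 36.4% with floored means, 21.2% with loess and 15.8% with equal spread. It was 18.6% with mean centring, 48.2% without dim probes and 4.08% at a difference of at least 1. With the replicate block it was 26.6%, and 12.9% with equal spread added. Total-signal calls numbered 0 of 54 without dim probes (7 at unadjusted p under 0.05), 108 of 240 with 5 or more probes, 52 at a difference of at least 1, 111 against manual U2OS alone, 318 of 906 without the old-sorting array, and 124 to 170 with an array left out. The cause was not tested, except that the dim-probe filter by its construction leaves 204 windows (54 late) between the lines and 6419 (415 late) between handling methods. Over all tested windows, 16.7% (without dim probes) to 40.3% (without the new-sorting array) were called between K562 and U2OS in these settings. In total signal the share was 4.41% (without dim probes) to 33.0% (5 or more probes). Signal over background was lowest on the 44k array over all tested windows (8.75% of probes well above it) and on the old-sorting array in late windows (21.0%, against 29.2% on the 44k array).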
